A study of Mus musculus with 12 samples.

Results

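The comparison set lumbar dorsal root ganglia (DRG) collected at ZT8 against lumbar DRG collected at ZT2, where ZT (zeitgeber time) is the hour counted from lights on. DRG hold the cell bodies of sensory neurons, the satellite glia that wrap them, Schwann cells, vessels and immune cells. Its members were taken by the collection time in the labels: 3 libraries at ZT8 and 3 at ZT2, 6 of the 12 libraries of a series that also sampled ZT14 and ZT20. The ZT8 group was polyadenylated RNA of ganglia L1 to L6 from naive male C57BL/6J mice aged 6 to 12 weeks, killed at ZT8. The ZT2 group shared strain, sex, age range, ganglia and preparation, and differed in the hour of killing. No allele, transgene or agent is named for either group. Whether the libraries are of different animals is not stated in the labels, so the p-values rest on a spread between libraries that may be technical. Library numbers run from 6 to 8 at ZT8 and from 3 to 5 at ZT2, so any batch of collection or preparation and the time of day cannot be told apart. All 25809 genes above a filter on low values were described, of 38594 in the table.

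The question, by the title of the series, concerns clock genes in nociceptors (neurons for harmful stimuli), excitability and pain. The molecular clock is a feedback loop present in most cells. BMAL1 (gene Arntl) and CLOCK bind E-box sequences and switch on the Per, Cry, Nr1d and Ciart genes, whose products repress them in turn. NR1D1 and NR1D2 repress Arntl through ROR elements, and the factors DBP, TEF and HLF, opposed by NFIL3, pass the rhythm on through D-boxes. Mice are active and feed mainly in the dark and rest mainly in the light. The sources used here do not give the hours of light.

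To show what stands in front of the genes on which the comparison turns, promoter windows of RefSeq (GRCm38.p6) are printed here, 250 bases before to 50 bases after the gene's start. Windows were present for 21 of 24 genes looked for, which were the 5 that passed the test and the clock genes, and 10 of the 21 had a window that holds an element described here. Printed are those of the 3 genes that passed and hold one, and of the 2 other clock genes of lowest p that do. Capitals mark an E-box (CACGTG), a D-box (TTATGTAA) or a ROR core motif (TAGGTCA or TGGGTCA) on either strand. An E-box stood in 7.15% of all 32851 RefSeq windows, a D-box in 0.938% and a ROR core motif in 6.45%. The windows are those of Fabp7 (chr10:57784673-57784972, plus strand), Arntl (its second window, chr7:113207261-113207560, plus strand), Khk (chr5:30921309-30921608, plus strand), Ciart (chr3:95882179-95882478, minus strand) and Per3 (chr4:151044616-151044915, minus strand).
Fabp7: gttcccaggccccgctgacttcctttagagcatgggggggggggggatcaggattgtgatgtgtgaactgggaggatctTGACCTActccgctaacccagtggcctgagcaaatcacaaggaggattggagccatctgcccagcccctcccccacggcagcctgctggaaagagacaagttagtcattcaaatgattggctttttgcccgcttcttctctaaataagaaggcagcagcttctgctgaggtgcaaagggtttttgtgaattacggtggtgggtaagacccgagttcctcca
Arntl: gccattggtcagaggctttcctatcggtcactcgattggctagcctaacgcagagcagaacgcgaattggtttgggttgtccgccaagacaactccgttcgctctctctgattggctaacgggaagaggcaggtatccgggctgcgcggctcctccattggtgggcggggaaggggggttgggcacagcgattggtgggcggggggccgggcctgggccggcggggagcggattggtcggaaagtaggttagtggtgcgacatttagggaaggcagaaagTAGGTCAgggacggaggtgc
Khk: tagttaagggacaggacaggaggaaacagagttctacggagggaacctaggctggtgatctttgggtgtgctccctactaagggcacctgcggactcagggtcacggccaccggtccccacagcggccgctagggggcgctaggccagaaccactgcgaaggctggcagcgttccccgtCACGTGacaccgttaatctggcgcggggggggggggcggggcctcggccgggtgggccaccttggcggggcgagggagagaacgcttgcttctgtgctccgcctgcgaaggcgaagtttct
Ciart: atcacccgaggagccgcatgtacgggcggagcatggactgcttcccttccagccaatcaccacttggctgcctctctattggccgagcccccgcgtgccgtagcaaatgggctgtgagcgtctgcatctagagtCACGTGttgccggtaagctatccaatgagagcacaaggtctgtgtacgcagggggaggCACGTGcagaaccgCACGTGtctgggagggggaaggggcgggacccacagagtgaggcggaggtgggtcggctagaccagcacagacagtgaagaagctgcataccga
Per3: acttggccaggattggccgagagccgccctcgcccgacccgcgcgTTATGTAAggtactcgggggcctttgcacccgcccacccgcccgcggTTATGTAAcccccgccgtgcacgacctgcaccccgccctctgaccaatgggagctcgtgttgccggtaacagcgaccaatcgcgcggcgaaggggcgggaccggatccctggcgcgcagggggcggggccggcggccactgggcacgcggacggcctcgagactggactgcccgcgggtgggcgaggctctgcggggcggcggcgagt
Counted from the 5′ end of each window, with the start at base 251, the ROR core motif began at base 80 in Fabp7, where it lies on the opposite strand, and at base 281 in Arntl. The E-box began at base 180 in Khk and the first of 3 at base 135 in Ciart, and the first of 2 D-boxes at base 46 in Per3. Not printed are the windows of Cry1, Bhlhe41, Per1 and Tef, with an E-box from base 191 in Cry1, 98 in Bhlhe41, 85 in 1 of 2 windows of Per1 and 124 and 113 in the 2 windows of Tef, and of Nfil3, with a ROR core motif from base 239. The windows of Slco1a4, Emilin1, Dbp, Nr1d1 and Nr1d2 held none of the 3 motifs, nor did the first window of Arntl. A match here is a run of letters and not a measured site.

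Estimated counts of the Ensembl genes summed to 102.7, 89.6 and 104.5 in the ZT8 libraries and to 91.5, 99.3 and 104.0 in the ZT2 libraries, in units of 1000000 counts. The values follow coverage and not read number, and approximate reads were 47.9 to 67.1 of the same units over the 12 libraries. Because of that scale, levels are already relative to transcript length. They are given as CPM, counts scaled to a total of 1000000 in each library. Over all genes no library stood apart: Pearson's r between log2 levels of any 2 libraries was 0.965 to 0.975. Such an r does not show differences in single cell types. Macrophage markers summed to 390.8, 394.6 and 749.5 CPM in the ZT8 libraries and to 546.1, 661.8 and 385.0 CPM in the ZT2 libraries. Fibroblast markers summed to 1066, 918.5 and 1395 CPM at ZT8 and to 1227, 1260 and 1028 CPM at ZT2. ZT8 replicate 3 was thus the highest at ZT8 in both. Defining genes of the labelled tissue had high levels, namely Calca, the precursor of the sensory peptide CGRP (2723 CPM at ZT8 and 2800 CPM at ZT2) and the neurofilament Nefh (1526 CPM at ZT8 and 1514 CPM at ZT2). Skeletal muscle RNA varied between libraries of the same time. The mean log2 CPM of its 25 markers was 1.92, 1.75 and 3.25 in the ZT8 libraries and 3.07, 3.52 and 1.57 in the ZT2 libraries, so the groups overlapped.

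Between ZT8 and ZT2, 5 genes passed the test, 0.0194% of all genes tested (edgeR quasi-likelihood, Benjamini-Hochberg adjusted p under 0.05, 1 model over the 12 libraries). At ZT8, 2 genes were higher (0.00775%) and 3 lower (0.0116%). The organic anion transporter Slco1a4 and the fructose enzyme Khk rose, and the glial lipid carrier Fabp7, the clock activator Arntl and the elastic fibre protein Emilin1 fell. An unadjusted p under 0.05 was reached by 1492 genes (5.78%), 748 higher (2.9%) and 744 lower (2.88%) at ZT8, and the 3 ZT8 libraries lay all above or all below the 3 ZT2 libraries for 3015 genes (11.7%). All 5 that passed were among these.

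**Figure D1:**
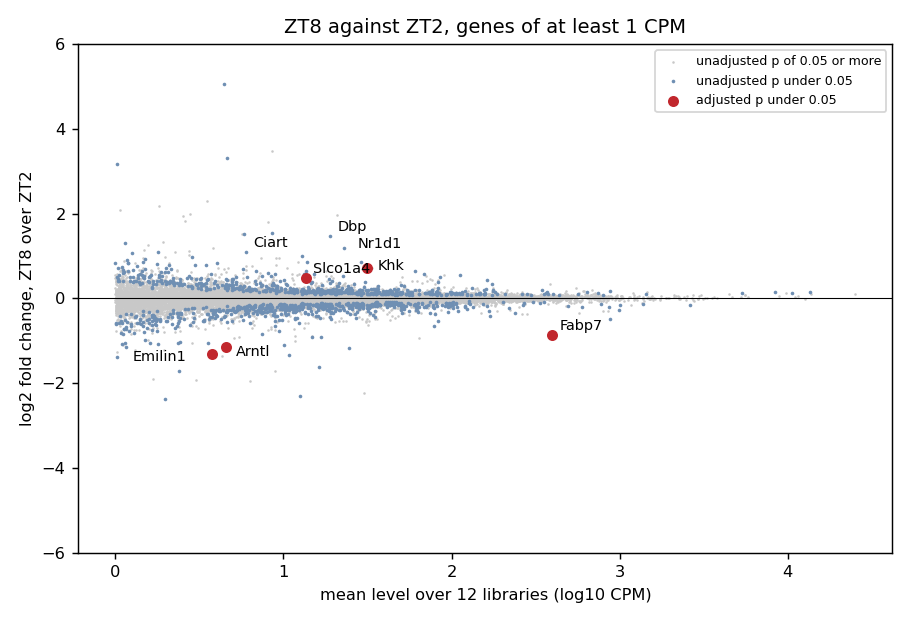
Each point is a gene with a mean of at least 1 CPM: the x axis gives its mean level over the 12 libraries on a log10 scale and the y axis its log2 fold change, ZT8 over ZT2. Large red points are the 5 genes that passed, and blue points had an unadjusted p under 0.05. Fabp7 is the only gene above 100 CPM that passed, and low genes scatter most.

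Fabp7 was the gene with the lowest p. It encodes the brain-type fatty acid-binding protein, which in DRG marks satellite glia and in mouse brain is known as a gene with a daily rhythm. Its level was 328.3, 290.8 and 347.2 CPM in the ZT8 libraries, against 628.1, 566.4 and 576.6 CPM in the ZT2 libraries. The lowest ZT2 library was thus well above the highest ZT8 library. Fabp7 fell by 0.87 ± 0.08 on the log2 scale at ZT8 (SE, 95% interval -1.04 to -0.70, adjusted p = 0.0045), to 0.546 of its ZT2 level, and it passed in each of the 12 fits without 1 library. With the 6 libraries of ZT8 and ZT2 alone, where no gene passed, its log2 fold change was -0.88 with an adjusted p of 0.0885. In bulk tissue, fewer glia and less RNA per glial cell cannot be told apart for a single gene. Set beside it, the other 18 measured satellite glia markers had log2 fold changes between -0.27 and 0.26, 10 above 0 and 8 below, with a median of 0.01. Of these 18, 5 had an unadjusted p under 0.05 beside 5.78% of all genes, 4 lower and 1 higher at ZT8, 0 passed in edgeR or limma-trend and 2 passed in DESeq2. Their summed level with Fabp7 was 7329 to 8219 CPM at ZT8 and 7747 to 7910 CPM at ZT2. Apoe alone, with means of 4492 CPM at ZT8 and 4201 CPM at ZT2, made up most of these sums. The single marker that was higher at that p was Glul, the glutamine synthetase of satellite glia, with 382.8 CPM at ZT8 against 345.3 CPM at ZT2, and Kcnj10, a potassium channel of these cells, had the lowest log2 fold change of the list after Fabp7, at 49.5, 45.3 and 40.9 CPM at ZT8, against 58.8, 49.9 and 54.6 CPM at ZT2. Of the 17 other lipid-binding proteins, 9 had log2 fold changes above 0 and 8 below, none passing in DESeq2, edgeR or limma-trend, and 2 reached an unadjusted p under 0.05.

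Arntl, which encodes the activator BMAL1, was at 2.90, 2.43 and 3.14 CPM in the ZT8 libraries, against 6.40, 6.05 and 6.27 CPM in the ZT2 libraries. The 3 libraries of each time lay close together and the groups did not overlap. Arntl fell by 1.14 ± 0.11 on the log2 scale at ZT8 (SE, 95% interval -1.39 to -0.90, adjusted p = 0.0066). Without ZT2 replicate 1 the adjusted p was 0.0511. Its partners and relatives did not pass. Clock was at 16.4 ± 0.39 CPM at ZT8 and 18.1 ± 2.72 CPM at ZT2, Npas2, which can stand in for Clock, at 2.88 ± 0.06 CPM at ZT8 and 3.12 ± 0.25 CPM at ZT2, and Arntl2, the paralog of Arntl, at 5.04 ± 0.31 CPM at ZT8 and 5.48 ± 0.17 CPM at ZT2 (SD, n = 3 each). Nfil3, the repressor that works against DBP at D-boxes, was at 6.39, 7.08 and 6.46 CPM at ZT8, against 9.04, 8.51 and 9.23 CPM at ZT2. Its groups did not overlap and its log2 fold change was -0.43 ± 0.07 (SE), but its adjusted p was 0.21. In the list of activators and genes in phase with them, 1 of 8 measured genes passed (Arntl), 7 had log2 fold changes below 0 and the median was -0.13, against 0.00 over all genes.

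The repressor and output genes of the clock lay on the other side of 0. All 12 measured members had log2 fold changes above 0, where 50.6% of all genes did. In 9 of the 12 the ZT8 libraries lay above the ZT2 libraries without overlap (6.13% of all genes, where 5.56% lay below), and 9 had an unadjusted p under 0.05 as higher (2.9% of all genes). In edgeR 0 passed over all genes, in limma-trend 1 (Ciart) and in DESeq2 6. The list's median log2 fold change was 0.40, and 0.34 without ZT8 replicate 3. Their summed level was 343.2 to 359.7 CPM in the ZT8 libraries and 265.7 to 270.4 CPM in the ZT2 libraries.

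Dbp, the D-box activator that the clock drives directly, had the largest log2 fold change of the list. It was at 30.5, 28.4 and 37.4 CPM in the ZT8 libraries, against 10.4, 14.7 and 9.57 CPM in the ZT2 libraries. Every ZT8 library was above every ZT2 library. The log2 fold change was 1.47 ± 0.24 (SE), a 2.78-fold higher level at ZT8, with an adjusted p of 0.193. Ciart, a repressor of CLOCK and BMAL1, missed the threshold most narrowly, with an adjusted p of 0.0601. Its level was 9.08, 8.14 and 10.3 CPM at ZT8, against 4.32, 4.35 and 4.27 CPM at ZT2, a log2 fold change of 1.09 ± 0.15 (SE). The ZT2 libraries of Ciart differed by little, and all of the spread was at ZT8. Per3, a period gene, was at 8.30, 8.04 and 9.30 CPM at ZT8, against 5.11, 6.24 and 5.02 CPM at ZT2 (log2 fold change 0.65 ± 0.11, adjusted p = 0.193).

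The nuclear receptors that repress Arntl differed in their spread. Nr1d1 was at 42.8, 44.0 and 58.7 CPM in the ZT8 libraries, against 26.6, 31.8 and 22.5 CPM in the ZT2 libraries, with ZT8 replicate 3 far above the other two (log2 fold change 0.85 ± 0.18, adjusted p = 0.463). Nr1d2 was at 31.8, 31.6 and 30.5 CPM at ZT8, against 23.7, 25.6 and 24.3 CPM at ZT2 (log2 fold change 0.35 ± 0.07, adjusted p = 0.398). Both were thus higher in every ZT8 library than in any ZT2 library. Nr1d1 overlaps Thra on the opposite strand, and Dbp overlaps Sphk2 likewise. Since the sources do not state that reads were counted by strand, these pairs may share reads, and how reads were divided between them was not tested. Thra was at 271.8 CPM at ZT8 and 277.7 CPM at ZT2, and Sphk2 at 45.3 CPM at ZT8 and 45.6 CPM at ZT2. Among the remaining members, Per1 had a log2 fold change of 0.45 ± 0.17, Hlf of 0.44 ± 0.11, Per2 of 0.28 ± 0.11 and Tef of 0.20 ± 0.05 (SE). Cry2, Bhlhe40 and Bhlhe41, which repress the activators, had values of 0.10 ± 0.06, 0.13 ± 0.07 and 0.08 ± 0.09. Cry1, a repressor placed in the other list because its phase is late, was at 10.1 ± 0.11 CPM at ZT8 and 10.6 ± 0.51 CPM at ZT2 (SD, n = 3 each). The kinases and ubiquitin ligases that modify clock proteins differed little: 10 of 12 had log2 fold changes above 0 (50.6% of all genes), the largest 0.18 for Csnk1e. By DESeq2, edgeR or limma-trend 0 passed, and 0 reached an unadjusted p under 0.05, beside 5.78% of all genes.

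**Figure D2:**
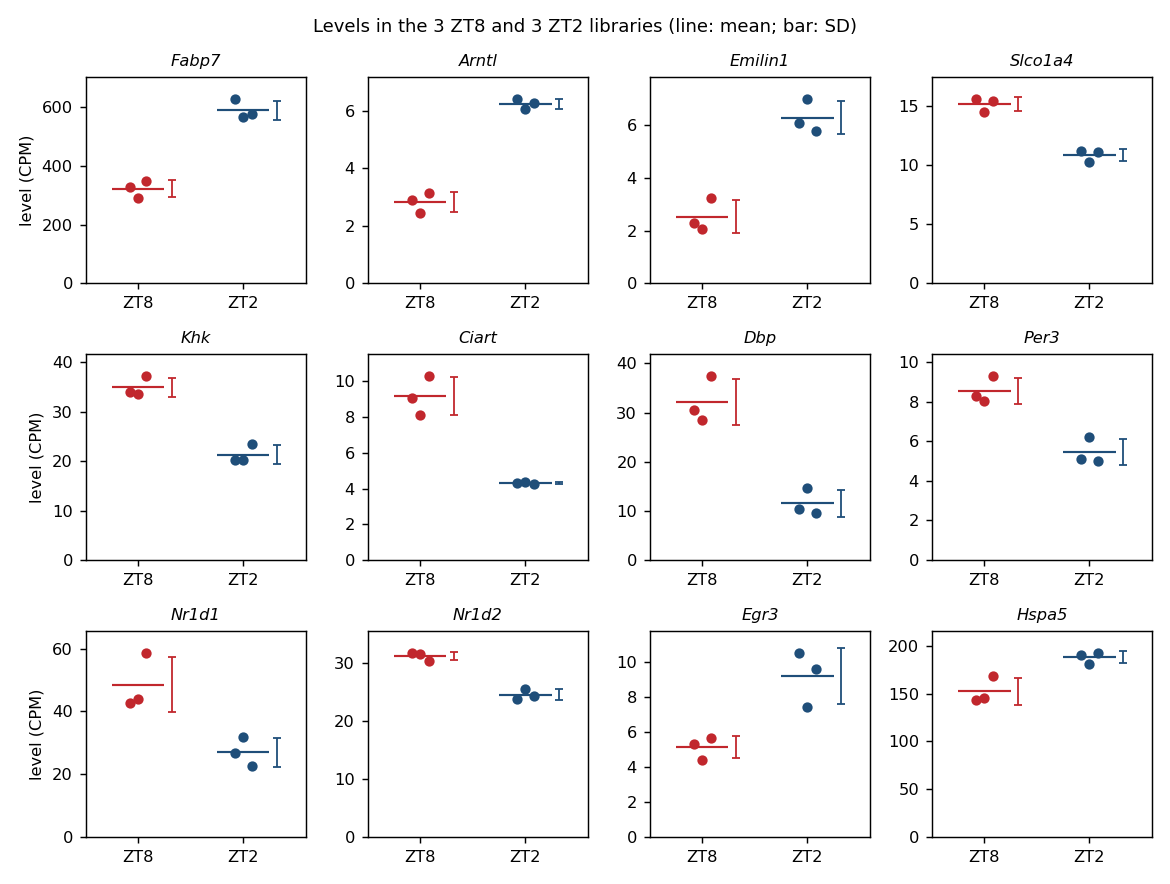
Levels in CPM (y axes, from 0) of 12 genes in each of the 3 ZT8 libraries (red, left) and the 3 ZT2 libraries (blue, right); horizontal lines are means and bars are SD. Fabp7, Arntl, Emilin1, Egr3 and Hspa5 lie lower at ZT8 and the other 7 lie higher, with no overlap between the groups in any panel.

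Slco1a4 encodes a transporter of organic anions on the vessels of the blood-brain barrier. Its level was 15.6, 14.5 and 15.4 CPM in the ZT8 libraries, against 11.2, 10.3 and 11.1 CPM in the ZT2 libraries. It rose by 0.48 ± 0.05 on the log2 scale, 1.40-fold (adjusted p = 0.0115), the smallest change among the 5 genes and the one with the smallest SE. In 5 of the 12 fits without 1 library it did not pass, with adjusted p-values up to 0.092. The 19 other transporters and junction genes of barrier endothelium were divided, 11 above 0 and 8 below. Of these 19, 3 had an unadjusted p under 0.05, 2 higher and 1 lower, beside 5.78% of all genes. In DESeq2 1 passed and in limma-trend 0. Ly6c1, a surface protein of vessels and monocytes, was at 97.3 ± 16.9 CPM at ZT8 and 69.0 ± 6.62 CPM at ZT2 (SD, n = 3 each; adjusted p = 0.468), whereas the tight junction gene Cldn5 was at 24.7 ± 2.26 CPM at ZT8 and 29.6 ± 1.44 CPM at ZT2. The 18 endothelial markers summed to 199.0 to 222.0 CPM at ZT8 and to 206.5 to 220.3 CPM at ZT2, so the overall endothelial signal overlapped.

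Khk and Emilin1 are neighbours on chromosome 5, on the same strand with 153 bases between them in GRCm38. Khk (30921431 to 30931248, ENSMUSG00000029162.15) encodes ketohexokinase, which phosphorylates fructose, and Emilin1 (30913402 to 30921277, ENSMUSG00000029163.9) a glycoprotein at the interface of elastin and microfibrils. Khk was at 34.0, 33.6 and 37.2 CPM in the ZT8 libraries, against 20.2, 20.2 and 23.5 CPM in the ZT2 libraries, and rose by 0.71 ± 0.08 on the log2 scale, 1.64-fold (adjusted p = 0.0115). Emilin1 was at 2.30, 2.06 and 3.23 CPM at ZT8, against 6.10, 7.00 and 5.79 CPM at ZT2, and fell by 1.31 ± 0.17 (adjusted p = 0.0409). Each gene's groups were well separated, in opposite directions. The summed reads of both genes, approximated from median transcript lengths and given per 1000000 reads, were 33.7, 32.3 and 38.5 at ZT8 and 33.3, 36.1 and 35.1 at ZT2, so that the sums overlapped. With the longest transcripts in place of the median they were 46.1, 44.4 and 51.9 at ZT8 and 40.7, 43.6 and 43.7 at ZT2, without overlap. How the reads were divided between the neighbours was not tested. Emilin1 passed in only 2 of the 12 fits without 1 library and Khk in 9, with adjusted p-values up to 0.204 and 0.0915. Other genes of fructose and glucose use, 27 in number, had log2 fold changes between -0.26 and 0.24. Of these, 20 were above 0 and 7 below, where 50.6% of all genes lay above 0. An unadjusted p under 0.05 was reached by 0 of the 27, beside 5.78% of all genes. Sord, which makes fructose from sorbitol, was at 79.6 CPM at ZT8 and 75.5 CPM at ZT2. Of the 19 other elastic fibre genes, 7 were above 0 and 12 below, and Ltbp2, a latent TGF-beta binding protein, was at 1.62 CPM at ZT8 and 1.14 CPM at ZT2.

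Leaving out the library richest in muscle RNA at each time, an alternative added after the data were seen, kept the sizes but ended all 5 calls: the log2 fold change was -0.96 for Fabp7, -1.25 for Arntl, -1.45 for Emilin1, 0.43 for Slco1a4 and 0.62 for Khk, with adjusted p-values between 0.0644 and 0.142. Only 8 libraries enter that fit. It called 6 other genes, 4 higher and 2 lower, Dbp and Ciart among them.

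Among the 24 protein-coding genes of lowest p with a mean of at least 1 CPM (12 higher and 12 lower), those that did not pass and are no clock genes differed widely in size and spread. On the higher side, Xpa, a damage sensor of nucleotide excision repair, was at 15.6, 15.0 and 16.7 CPM at ZT8, against 13.1, 13.0 and 13.2 CPM at ZT2 (adjusted p = 0.374). Foxm1, a transcription factor of dividing cells, was at 1.89 ± 0.19 CPM at ZT8 and 1.17 ± 0.08 CPM at ZT2, and Gtse1, a gene of cell division, at 1.46 ± 0.22 CPM at ZT8 and 0.91 ± 0.04 CPM at ZT2 (SD, n = 3 each). The list of cell cycle genes, which holds neither Foxm1 nor Gtse1, had 24 of 31 members above 0 (50.6% of all genes), with a median of 0.10. In it 2 members, 6.45%, had an unadjusted p under 0.05, in opposite directions, beside 5.78% of all genes. Sertad1, a cofactor of cyclin-dependent kinase, Kifc3, a minus-end kinesin, and Zfp663 had log2 fold changes of 0.35, 0.18 and 0.79.

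On the lower side, Rtl8a, a gene derived from a retrotransposon, was at 207.9, 198.4 and 194.5 CPM in the ZT8 libraries, against 252.2, 255.2 and 254.8 CPM in the ZT2 libraries (adjusted p = 0.128). It belongs to a family of near-identical copies, so its counts are uncertain. Serpinh1, the chaperone of collagen, was at 59.2, 52.6 and 76.5 CPM at ZT8, against 103.0, 93.2 and 97.9 CPM at ZT2 (log2 fold change -0.64 ± 0.12, adjusted p = 0.304). All ZT2 libraries of Serpinh1 were above the highest ZT8 library. Of 23 collagen genes, 19 likewise had log2 fold changes below 0 (median -0.11), where 50.6% of all genes lay above 0. By DESeq2, edgeR or limma-trend 0 passed. An unadjusted p under 0.05 was reached by 1, the basement membrane collagen Col4a1, which is 4.35% beside 5.78% of all genes. Tcirg1, a proton pump subunit, was at 15.7 ± 1.71 CPM at ZT8 and 21.4 ± 1.03 CPM at ZT2 (SD, n = 3 each). Sox3, a transcription factor of progenitors, Mfap3, Jmjd6, an oxygenase, and Trio, an exchange factor for small GTPases, had log2 fold changes of -1.04, -0.31, -0.32 and -0.23. DESeq2 passed 82 genes (0.312%), 32 higher (0.122%) and 50 lower (0.19%), which included all 5 genes of edgeR. limma-trend passed 7 (0.0271%), 4 higher (0.0155%) and 3 lower (0.0116%): the 5 genes, Ciart and the microRNA gene Mir3473e. Mir3473e was at 0.153, 0.391 and 0.665 CPM at ZT8 and at 0 in all ZT2 libraries, so no fold is given.

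Immediate early genes, which neurons and glia switch on within minutes of stimulation, were on the low side at ZT8. Of 22 measured, 21 had log2 fold changes below 0 (median -0.19), where 50.6% of all genes lay above 0. In this list 0 passed in edgeR or limma-trend and 1 in DESeq2 (Egr3), and 3 had an unadjusted p under 0.05, all lower, beside 2.88% of all genes. Egr3 was at 5.35, 4.43 and 5.65 CPM in the ZT8 libraries, against 10.5, 7.45 and 9.64 CPM in the ZT2 libraries (log2 fold change -0.84 ± 0.16, adjusted p = 0.344). Egr1 was at 5.97, 6.30 and 8.81 CPM at ZT8, against 10.8, 12.8 and 12.2 CPM at ZT2, and Fos at 4.75, 4.61 and 5.87 CPM at ZT8, against 7.09, 8.75 and 7.06 CPM at ZT2. For these 3 genes the groups did not overlap. Of the 22 members, 6 lay below without overlap, beside 5.56% of all genes, and 0 lay above. Jund, the member of highest level, overlapped, at 238.8 ± 20.1 CPM at ZT8 and 247.7 ± 12.7 CPM at ZT2 (SD, n = 3 each). The summed level of the list was 538.8 to 591.7 CPM at ZT8 and 596.4 to 616.4 CPM at ZT2.

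Chaperones were on the same side. Of 21 heat shock chaperones, 18 had log2 fold changes below 0 (median -0.12), with 8 at an unadjusted p under 0.05, all lower, where 2.88% of all genes were. In edgeR and limma-trend 0 passed and in DESeq2 1, Dnajb1, a co-chaperone of HSP70, at 53.0, 58.1 and 57.5 CPM at ZT8, against 72.0, 65.4 and 72.2 CPM at ZT2. The inducible HSP70 genes Hspa1a and Hspa1b, near-identical copies between which reads are divided uncertainly, each had a log2 fold change of -0.37. The constitutive Hspa8 was at 3516 ± 130.4 CPM at ZT8 and 3492 ± 92.4 CPM at ZT2 (SD, n = 3 each). In the endoplasmic reticulum, 17 of 23 genes of the unfolded protein response were below 0 (median -0.06) and 6 had an unadjusted p under 0.05, all lower; 0 passed in edgeR or limma-trend and 4 in DESeq2. Hspa5, the master chaperone BiP, was at 143.0, 145.0 and 168.9 CPM at ZT8, against 190.8, 181.1 and 192.4 CPM at ZT2 (log2 fold change -0.30 ± 0.07, adjusted p = 0.468). Hsp90b1, its partner GRP94, was at 256.4 ± 4.21 CPM at ZT8 and 286.3 ± 5.23 CPM at ZT2, and Xbp1, a transcription factor of this response, at 97.6 ± 11.4 CPM at ZT8 and 119.9 ± 3.29 CPM at ZT2 (SD, n = 3 each). The ZT8 and ZT2 libraries of Hspa5, Hsp90b1 and Xbp1 did not overlap. Of the 23 members, 7 lay below without overlap, beside 5.56% of all genes, and 0 lay above. Calr, the member of highest level, overlapped, at 413.1 ± 22.8 CPM at ZT8 and 439.5 ± 5.66 CPM at ZT2 (SD, n = 3 each). The list summed to 2299 to 2437 CPM at ZT8 and 2508 to 2552 CPM at ZT2.

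Glucocorticoid-responsive genes, targets of the adrenal hormone corticosterone, which has a daily rhythm in mice, were more often higher than lower. Of 22 members, 15 had log2 fold changes above 0 (median 0.14), where 50.6% of all genes did. In edgeR, limma-trend and DESeq2 0 passed; 8 had an unadjusted p under 0.05, 6 higher and 2 lower, beside 2.9% and 2.88% of all genes. The metallothionein Mt2 was at 123.1, 134.7 and 115.6 CPM at ZT8, against 97.1, 91.8 and 65.1 CPM at ZT2, and Fam107a, a stress-responsive actin-associated gene, at 18.7, 20.3 and 17.8 CPM at ZT8, against 15.8, 14.5 and 12.2 CPM at ZT2. The groups did not overlap in either gene. Over the list, 7 of 22 members lay above without overlap and 1 below, beside 6.13% and 5.56% of all genes. Plin4, a coat protein of lipid droplets, had the lowest p of the list at a low level, with 0.575, 0.948 and 0.587 CPM at ZT8, against 0.358, 0.389 and 0.265 CPM at ZT2 (log2 fold change 1.06 ± 0.27, adjusted p = 0.583). Tsc22d3, the classical target GILZ, was at 190.8 ± 3.78 CPM at ZT8 and 174.8 ± 8.81 CPM at ZT2 (SD, n = 3 each). Per1 belongs to this list and to the clock list. Angptl4, also a fasting gene, was at 13.8 CPM at ZT8 and 18.4 CPM at ZT2 and so on the other side.

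**Figure D3:**
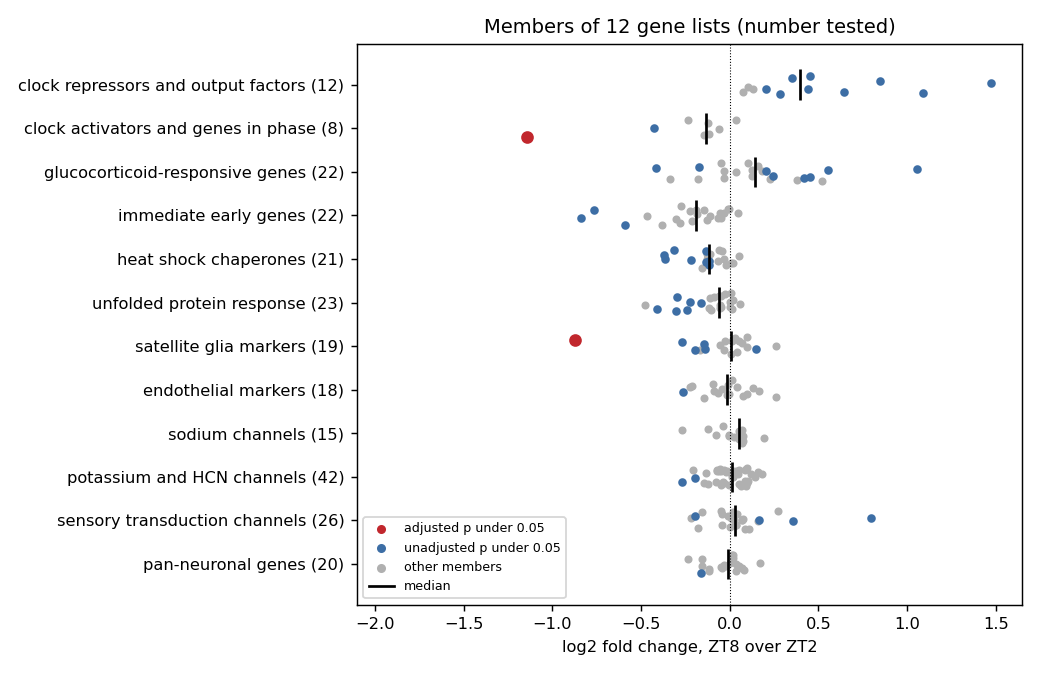
Log2 fold change, ZT8 over ZT2 (x axis), of each measured member of 12 gene lists (rows, number tested in brackets; the height within a row has no meaning), with black bars for medians. The clock repressors and outputs lie wholly to the right of 0, immediate early genes and chaperones mostly to the left, and the neuronal lists centre on 0.

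Genes through which sensory neurons detect stimuli and fire had no member that passed in edgeR. Of 224 measured members of 12 neuronal and pain-related lists, 0 passed in edgeR or limma-trend and 1 in DESeq2, and 112 had log2 fold changes above 0. An unadjusted p under 0.05 was reached by 15, which is 6.7% beside 5.78% of all genes, 6 higher and 9 lower. Their 95% intervals, not adjusted for the number of genes tested, reached, in the median, 0.188 to either side on the log2 scale. A change beyond that size could still miss the adjusted threshold, as Nr1d2 did with 0.35 ± 0.07 (SE). Among the 165 members at 10 CPM or more, the lowest bound of an interval was -3.15 and the highest 2.15. The gene of DESeq2 was Lpar1, a lysophosphatidic acid receptor shared with Schwann cells, at 77.3, 73.0 and 77.3 CPM at ZT8, against 86.2, 85.3 and 88.8 CPM at ZT2. The nociceptor sodium channel Scn10a was at 158.2, 177.4 and 144.2 CPM at ZT8, against 150.6, 142.9 and 161.9 CPM at ZT2, and the groups overlapped (95% interval of the log2 fold change -0.10 to 0.25). For the sodium channels Scn9a and Scn11a the intervals were -0.18 to 0.17 and -0.11 to 0.22. The heat-gated channel Trpv1 was at 111.5, 109.5 and 122.3 CPM at ZT8, against 113.7, 134.3 and 145.9 CPM at ZT2, with an unadjusted p of 0.042 and an adjusted p of 0.86. Trpv4, a channel for warmth and swelling, was at 2.44 ± 0.55 CPM at ZT8 and 1.91 ± 0.04 CPM at ZT2 (SD, n = 3 each). Adcyap1, the precursor of the peptide PACAP, was at 88.2 ± 1.90 CPM at ZT8 and 102.0 ± 7.25 CPM at ZT2, and Calca had a log2 fold change of -0.04 ± 0.08 (SE).

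Among the genes with the largest changes, some had a single library far from the rest. Il31ra, the receptor of the itch cytokine IL-31, was at 10.9, 11.7 and 10.3 CPM at ZT8 and at 9.01, 78.9 and 13.4 CPM at ZT2, with ZT2 replicate 2 far above the other libraries and a log2 fold change of -1.62, or of -0.03 without that library. Surf1, an assembly factor of respiratory complex IV, was at 6.93, 7.94 and 7.69 CPM at ZT8 and at 30.8, 6.97 and 11.0 CPM at ZT2, where replicate 1 stood out. Fn3k, a kinase that repairs glycated proteins, had no such library at ZT8 or ZT2. It was at 11.8, 13.0 and 12.5 CPM at ZT8, against 4.52, 4.99 and 3.37 CPM at ZT2, a log2 fold change of 1.53 ± 0.52 with an adjusted p of 0.79. At ZT14, which enters the same model, Fn3k was at 12.2, 4.26 and 1.95 CPM. Arap2, an Arf GTPase regulator, was at 21.7, 16.7 and 20.6 CPM at ZT8, against 11.2, 10.9 and 10.6 CPM at ZT2 (adjusted p = 0.468). Naa80, which acetylates actin, overlaps Hyal3 and Hyal1 on the same strand. Naa80 was at 6.42 CPM at ZT8 and 16.3 CPM at ZT2, Hyal3 at 6.87 CPM at ZT8 and 4.86 CPM at ZT2, and Hyal1 at 1.39 CPM at ZT8 and 1.81 CPM at ZT2. Of the 12 genes with the largest changes at a mean of at least 5 CPM and an unadjusted p under 0.05, 4 had a protein-coding neighbour within 1 kb, beside 39.7% of all 11107 genes of that level. Pcyox1l, Lgals4 and Grpel2, also among the 12, had log2 fold changes of 1.19, -1.18 and -0.91 with adjusted p-values of 0.86, 0.85 and 0.78. Pcyox1l (61696837 to 61707635) and Grpel2 (61712424 to 61726325) lie on the same strand of chromosome 18, more than 1 kb apart. The count of neighbours within 1 kb leaves this pair out. At ZT14 their levels moved in opposite directions, at 37.4, 7.99 and 38.2 CPM for Pcyox1l and 13.0, 21.6 and 13.2 CPM for Grpel2. How reads were divided between them was not tested.

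Markers of the other cells of the sample were set beside these results. Erythroid genes summed to 2477 to 2662 CPM at ZT8 and 1906 to 4271 CPM at ZT2, neutrophil and bone marrow markers to 96.3 to 136.9 CPM at ZT8 and 89.0 to 189.0 CPM at ZT2, macrophage markers to 390.8 to 749.5 CPM at ZT8 and 385.0 to 661.8 CPM at ZT2, and fibroblast markers to 918.5 to 1395 CPM at ZT8 and 1028 to 1260 CPM at ZT2. Myelinating Schwann cell markers summed to 6812 to 8628 CPM at ZT8 and to 7576 to 8312 CPM at ZT2. In each of these lists the ranges of both times overlapped, and 0 members passed in edgeR, limma-trend or DESeq2. Of 17 erythroid genes 2, both lower, and of 21 macrophage markers 2, both higher, had an unadjusted p under 0.05. These are 11.8% and 9.52%, beside 5.78% of all genes. Interferon-stimulated genes had 20 of 26 members above 0 with 0 at an unadjusted p under 0.05. Of 83 cytoplasmic ribosomal protein genes, 65 were above 0 with a median of 0.03, and 2 (2.41%) had an unadjusted p under 0.05. Over all genes 50.6% lay above 0 and 5.78% reached that p.

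The step of 6 h was then set beside the later step of 6 h, ZT20 against ZT14. The levels of the later step come from other libraries, but its SEs and p-values use the spread estimated over all 12. The difference between the steps also contains the ZT8 step by which the 5 genes were chosen. In the step ZT20 against ZT14, 11 genes passed (0.0426%), 2 higher (0.00775%) and 9 lower (0.0349%) at ZT20. The difference between the steps passed for 13 genes (0.0504%), 9 with the higher value in the ZT8 step (0.0349%) and 4 with the lower (0.0155%). Of the 5 genes of ZT8 against ZT2, Fabp7 and Arntl changed in the opposite direction. Fabp7 had a log2 fold change of 1.04 ± 0.08 for ZT20 over ZT14 (adjusted p = 0.000723; difference of the steps -1.92 ± 0.11, adjusted p = 4.28e-05), and Arntl had one of 1.28 ± 0.11 (adjusted p = 0.0021; difference -2.42 ± 0.16, adjusted p = 9.53e-05). Their mean levels were 590.4, 322.1, 220.7 and 455.1 CPM for Fabp7 and 6.24, 2.83, 2.63 and 6.39 CPM for Arntl at ZT2, ZT8, ZT14 and ZT20. Slco1a4 had a log2 fold change of -0.27 ± 0.05 in the later step, which did not pass, but its steps differed by 0.75 ± 0.08 (adjusted p = 0.00445).

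Khk and Emilin1 did not pass the difference of the steps. Khk was at 21.3, 34.9, 33.5 and 36.2 CPM at ZT2, ZT8, ZT14 and ZT20, so ZT2 alone was low, and its steps differed by 0.60 ± 0.11 without passing (adjusted p = 0.199). Emilin1 was at 6.30, 2.53, 3.48 and 2.73 CPM at the same times, so ZT2 alone was high (difference of the steps -0.96 ± 0.24, adjusted p = 0.534). The clock genes Ciart, Dbp, Per3, Nr1d1, Nr1d2, Per2 and Tef, none of which passed for ZT8 against ZT2, all passed the difference of the steps, with values of 2.01 ± 0.21, 3.01 ± 0.34, 1.48 ± 0.15, 1.84 ± 0.26, 0.96 ± 0.10, 1.41 ± 0.15 and 0.56 ± 0.07 and adjusted p-values between 0.00445 and 0.0461. Per2 was highest at ZT14, with 4.50, 5.47, 8.30 and 3.80 CPM at ZT2, ZT8, ZT14 and ZT20, a log2 fold change of 0.28 ± 0.11 for ZT8 over ZT2 and of -1.13 ± 0.11 for ZT20 over ZT14. Nfil3 had -0.43 ± 0.07 in the ZT8 step and -0.02 ± 0.07 in the later step, and the difference did not pass (adjusted p = 0.545). Fmo2, a flavin monooxygenase chosen as the lowest p of its list, was at 8.62 ± 0.89 CPM at ZT8 and 6.43 ± 0.80 CPM at ZT2, and also passed the difference of the steps, as did Sat1 and Spg21.

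**Figure D4:**
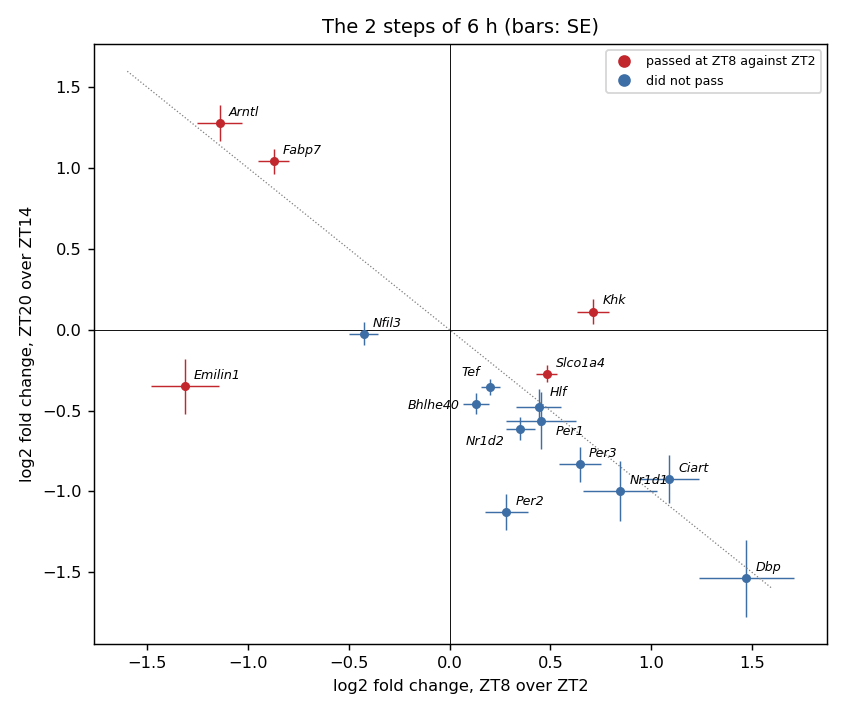
Log2 fold change for ZT8 over ZT2 (x axis) and for ZT20 over ZT14 (y axis) of the 5 genes that passed (red) and of 11 clock genes (blue), with SE as bars; the dotted line marks equal and opposite changes. Arntl, Fabp7 and Dbp lie on or near that line, Per2 falls below it, and Khk and Emilin1 lie away from it.

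How small a change could be seen depended on the level. The median SE of the log2 fold change was 0.62 for 9550 genes under 1 CPM, 0.14 for 6712 genes of 1 to 10 CPM, 0.07 for 7792 genes of 10 to 100 CPM and 0.05 for 1755 genes of 100 CPM and over. Of the 5 genes that passed, 2 were between 1 and 10 CPM (Arntl and Emilin1), 2 between 10 and 100 CPM (Slco1a4 and Khk) and 1 above (Fabp7), and none of the genes of 100 CPM and over differed by more than 2-fold.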

How the data were processed

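RNA of lumbar DRG was measured in 12 libraries, 3 at each of ZT2, ZT8, ZT14 and ZT20. Per the labels' protocols, polyadenylated RNA was captured on oligo(dT) beads, copied with random primers and read from both ends over 150 bases. Per the submitters' processing notes, HISAT2 2.2.1, StringTie 2.1.5 and build GRCm38.p6 were used; the sources used here do not give their roles, the annotation release or the strand handling. The authors deposited estimated counts per gene, not whole numbers, on a scale of coverage: the most frequent value of a library, 16.4 to 17.2, was shared by genes of different length. Counting error is therefore not modelled exactly, and read depth is approximate. For the count tests they were rounded to integers. Of 38942 rows, 348 assembled loci (0.203% to 0.231% of a library) were left out of library sizes and tests. Symbols and coordinates came from GENCODE M21 (38462 of 38594 IDs matched), promoter windows from RefSeq.

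The test was edgeR 4.0.16 (R 4.3.3): filterByExpr, TMM factors (0.970 to 1.017), robust quasi-likelihood F test, 1 model of the 4 times over the 12 libraries with no covariate, Benjamini-Hochberg adjusted over 25809 genes with a threshold of 0.05. Contrasts were ZT8 minus ZT2, ZT20 minus ZT14 and their difference. limma 3.58.1 (limma-trend), DESeq2 1.42.0, other normalizations and filters, and fits without 1 library were alternatives. The procedure was tested on simulated data. Members and the 54 gene lists were chosen with earlier results of these data known, so lists are described by counts and medians without a test. Named genes were all that passed; the 12 higher and 12 lower protein-coding genes of lowest p with a mean of at least 1 CPM; the 6 higher and 6 lower of largest change with a mean of at least 5 CPM and an unadjusted p under 0.05; all clock list members; of every other list the members of lowest p and highest level; and neighbours within 1 kb of a gene that passed. Others named were chosen after their values were seen. Tables and figures were made with Python 3.11.15, pandas 2.3.3 and matplotlib 3.10.9.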

Additional observations from a re-analysis of the deposited data

How the results depend on the processing

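Over the 26 other settings the log2 fold changes of the 5 genes kept their signs, between -0.96 and -0.81 for Fabp7, -1.25 and -1.05 for Arntl, -1.53 and -1.19 for Emilin1, 0.43 and 0.51 for Slco1a4 and 0.62 and 0.79 for Khk. The count of 5 was 82 in DESeq2 and 3 with the replicate block. With the 6 libraries of ZT8 and ZT2 alone it was 0 in edgeR, with 1347 genes at an unadjusted p under 0.05 and a lowest adjusted p of 0.0885; fewer libraries then estimate the spread. Without 1 library it was 1 (ZT2 replicate 1) to 10 (ZT8 replicate 3), and 3 without ZT2 replicate 2, ZT2 replicate 3, ZT8 replicate 1 or ZT14 replicate 2. Without the library richest in muscle RNA at each time, 6 genes passed and 0 of them were among the 5. The 13 genes whose steps differed became 80 in DESeq2, 8 with the replicate block and 5 without the muscle-rich libraries, and of the 5 genes the number passing for ZT20 against ZT14, 2, was then 0. Libraries of the same replicate number did not deviate together (r between -0.065 and 0.078 for their deviations from the time means). Libraries of different number reached an r of 0.133. This r cannot exclude handling shared by replicate number, which the labels do not give. No gene that passed changed sign. Of 139 named genes 30 that did not pass changed sign under some setting, 28 of them within 0.1 of 0 on the log2 scale, and 29 of 54 list medians did. Il31ra (-1.62) was at 0.01 without the muscle-rich libraries. These include ZT2 replicate 2, where Il31ra was at 78.9 CPM, and without that library alone it was at -0.03. Counted once for each named gene and setting, 39 values of genes that had not passed did pass under another setting, most of them in DESeq2. The 32 values that lost their call all belong to the 5 genes that passed. The cause of these changes was not tested. With 3 libraries a time, a gene near 1 CPM was measured with a median SE of 0.14 or more on the log2 scale.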

Other observations

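Assembled loci without a gene name, 290 of which were measured highly enough, held 0 that passed for ZT8 against ZT2 in edgeR, with 25 at an unadjusted p under 0.05 and a lowest adjusted p of 0.581.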
